A study of Sus scrofa with 64 samples.

Results

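The genes described here encode the machinery that moves newly made proteins into the endoplasmic reticulum (ER), sends them on to the Golgi and returns escaped components to the ER. They were chosen by symbol (SEC, SSR, SPCS, SRP, STT3, RPN, DDOST, DAD1, OSTC, KDELR, TMED and COP names) and by a mean of at least 1 CPM over 64 libraries, where CPM is the count of a gene relative to the size of its library. The symbols matched 67 genes, and 63 of them reached that level, out of 25772 genes with a count in any piglet. All 63 also passed the filter on low counts that left 14062 genes for testing. The 4 matched genes under the level were SEC61A2 at a mean of 0.276 CPM, SEC14L5 at 0.177, TMED6 at 0.0298 and SEC14L4 at 0.0119. The members just above it were TMED1, with group means of 2.37 to 3.52 CPM, and COPZ2, with group means of 1.59 to 5.2 CPM.

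RNA was sequenced from scraped mid-jejunal mucosa of 64 female TN20 piglets, a Large White x Norwegian Landrace cross, with 1 library per piglet and 16 piglets in each of 4 groups. Fasted 6-week and fed 6-week piglets had been moved to a research facility at 4 weeks of age, housed in pairs and given a standard weaning diet. The fasted ones then went without feed for 48 h, while the fed ones kept the diet. Fasted 4-week piglets were held apart from the sow in a pen on the farm for 48 h, and fed 4-week piglets suckled on the farm throughout, with no creep feed before that age. Water was always available. Age, weaning, diet and housing changed together between the ages and cannot be told apart, and at 4 weeks fasting and removal from the sow cannot be told apart.

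A secreted or membrane protein is recognised on the ribosome by the signal recognition particle (SRP), docked at its receptor on the ER and threaded through the SEC61 channel. There the signal peptidase removes its signal sequence, and the oligosaccharyltransferase adds sugar chains to it. Folded cargo leaves in vesicles coated with COPII, in which SEC24 proteins select the cargo. Vesicles coated with COPI carry KDEL receptors and p24 proteins back from the Golgi. In the jejunum this route carries chylomicrons, mucus, brush border enzymes, hormones and antibodies, so absorptive enterocytes, goblet, enteroendocrine and plasma cells all depend on it.

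Libraries held 18774144 to 21159989 counts on genes, and no pair of libraries in a group came close to agreeing within sampling noise, with median ratios of chi-square to its degrees of freedom of 61.4 to 107.4. The 10 absorptive enterocyte markers with a gene ID were all present, and their summed level ran from 10710 to 109800 CPM over the 64 piglets. Of 3 Paneth cell markers with an ID, 1 was at 0 in every group. Levels below are CPM on libraries scaled by TMM (trimmed mean of M values), log2 fold changes are fasted over fed or 6 weeks over 4 weeks, and adjusted p values come from edgeR's quasi-likelihood test with Benjamini-Hochberg adjustment over all 14062 genes. A gene was called at an adjusted p under 0.05. The labels do not name litter or batch, so the spread is that between piglets of a group.

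Most of these genes were lower in fasted than in fed piglets at both ages. At 6 weeks 44 of the 63 genes (69.8%) fell, 3 rose and 16 were not called, against 18.4% of all tested genes that fell and 22.7% that rose. At 4 weeks 44 fell, 6 rose and 13 were not called, against 29.4% of all tested genes that fell and 33.9% that rose. The median log2 fold change of the 63 genes was −0.31 at 6 weeks, against 0.01 over all tested genes, and −0.44 at 4 weeks, against 0.03 over all. The changes at 4 weeks reached further. For 14 members every fasted piglet lay below every fed piglet at 4 weeks, a pattern seen in 2.73% of tested genes, and 10 members fell by 2-fold or more, as did 7.05% of tested genes. No member separated the groups at 6 weeks, where 0.37% of tested genes did in either direction, and none was called with a change of 2-fold or more, against 3.89% of tested genes in either direction. Tested against a 1.5-fold change with edgeR's glmTreat, 18 members were called at 4 weeks, against 19.8% of tested genes, and 17 of them were lower, against 8.66%. The same test called 0 members at 6 weeks, against 2.38% of tested genes.

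The 31 members that fell at both ages made up 70.5% of the 44 that fell at 6 weeks and 70.5% of the 44 that fell at 4 weeks. These shares are near the 69.8% of all 63 members that fell at each age. Among the members, a fall at 6 weeks thus told little about a fall at 4 weeks. Over all tested genes, 998 fell at both. They are 38.6% of those that fell at 6 weeks, against 29.4% of all that fell at 4 weeks. They are also 24.1% of those that fell at 4 weeks, against 18.4% of all that fell at 6 weeks. The fasted and fed groups of the ages share no piglets. SEC31B was called higher at both ages. KDELR1 and SEC22C rose at 6 weeks and fell at 4 weeks, while SEC11A, TMED3 and TMED8 fell at 6 weeks and rose at 4 weeks. Of these 5 genes with opposite calls, SEC22C was called at both ages with goblet and plasma cell marker levels as covariates, TMED3 at 6 weeks only, and KDELR1, SEC11A and TMED8 at neither age.

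**Figure D1:**
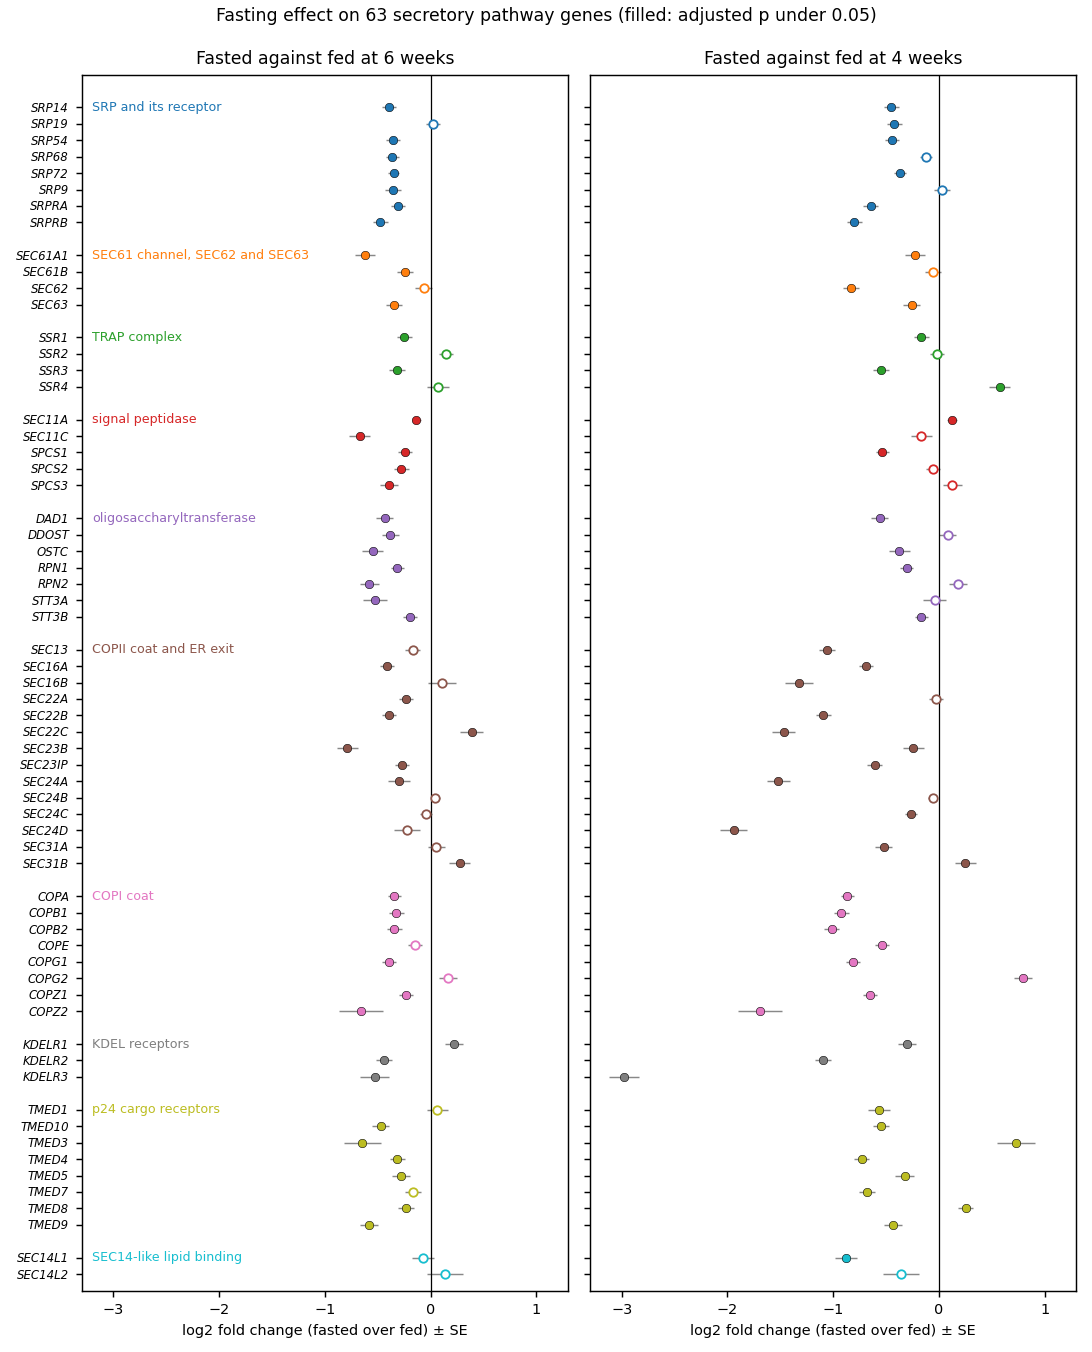
Log2 fold change of fasted over fed piglets (horizontal axis, ± SE) for each of 63 genes, grouped by role, at 6 weeks on the left and at 4 weeks on the right, with filled points for an adjusted p under 0.05. At 6 weeks all points lie between −0.79 and 0.39, and at 4 weeks the coat and KDEL receptor genes reach −2.98.

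The scaling of the libraries bears on the 4-week counts. Scaled by library size alone, the median of all tested genes at 4 weeks was 0.25 in place of 0.03, and that of the members was −0.20. On that scale 32 members fell and 13 rose, so that 28.9% of called members were higher, against 12% with TMM, while among all called genes 73.4% were higher, against 53.5% with TMM. SSR1 and STT3B, both called lower, changed sign, and 10 more of the called members were no longer called: SEC61A1, SEC63, SRP72, RPN1, OSTC, SEC23B, SEC24C, KDELR1, TMED5 and TMED9. SRP9, SSR2, SPCS3, DDOST, RPN2, SEC22A and SEC24B, not called with TMM, were called higher. At 6 weeks the same change of scale left 47 members lower and 2 higher.

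Cell type markers moved with fasting as well, and in a bulk sample fewer cells of a type and less RNA per cell cannot be told apart. At 4 weeks the summed absorptive enterocyte markers had a median of 41320 CPM (10710 to 73100) in fasted and 81540 CPM (60940 to 109800) in fed piglets, with 5 of 10 markers called lower and 1 higher. Smooth muscle markers had medians of 153 CPM (48.9 to 358) in fasted and 481 CPM (235 to 882) in fed 4-week piglets, and 9 of 10 fell. Of the fibroblast markers 7 of 10 fell at 4 weeks, with summed levels of 54.6 to 2007 CPM in fasted and 690.5 to 2492 CPM in fed piglets. All 7 cycling crypt cell markers rose at 4 weeks, with medians of 1151 CPM (287 to 3364) in fasted and 187 CPM (38.7 to 758.5) in fed piglets. At 6 weeks the absorptive enterocyte markers had medians of 48370 CPM (34370 to 73020) in fasted and 48820 CPM (35320 to 60930) in fed piglets, with 1 of 10 called lower, while 6 of 10 smooth muscle and 8 of 10 fibroblast markers fell. Of the other lists, 6 of 7 blood endothelium and 5 of 8 enteroendocrine markers fell at 4 weeks, and 3 of 7 T cell and 5 of 8 macrophage and dendritic cell markers rose. Of all tested genes 29.4% fell and 33.9% rose at 4 weeks, and 18.4% fell and 22.7% rose at 6 weeks. The part of these cell types in the results was not tested. Of 6 goblet cell markers 3 fell at 6 weeks, and 3 rose and 1 fell at 4 weeks. Of 7 plasma cell markers 1 fell at 6 weeks and 6 rose at 4 weeks. The levels of these 2 lists were entered as covariates. Since they moved with fasting, that fit may also take up part of the fasting effect. With them 38 members fell and 1 rose at 6 weeks, against 1951 and 2307 of all tested genes. At 4 weeks 42 members fell and 3 rose, against 3882 and 4226 of all.

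The SRP and its receptor were lower in fasted piglets at both ages. At 6 weeks 7 of their 8 genes fell and at 4 weeks 6 of 8 fell, with none higher at either age. SRPRB, the membrane-anchored subunit of the receptor, was at 29.7 to 42.2 CPM (median 34.5) in fasted 6-week and 40.7 to 57.6 CPM (median 47.7) in fed 6-week piglets. Its range was 30.3 to 47.9 CPM (median 36.3) in fasted 4-week and 48.9 to 90.5 CPM (median 66.3) in fed 4-week piglets. The groups met at 6 weeks and stood apart at 4 weeks. The log2 fold change was −0.48 ± 0.07 (SE) at 6 weeks (edgeR adjusted p = 2.5e-07) and −0.80 ± 0.07 at 4 weeks (adjusted p = 3.0e-15). SRPRA, which binds the SRP on the cytosolic side, changed by −0.31 at 6 weeks and −0.65 at 4 weeks, and lay under the median of the fed group in all 16 fasted piglets at each age.

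Among the SRP proteins, SRP54, which reads the signal sequence, fell by 0.36 at 6 weeks and by 0.44 at 4 weeks on the log2 scale. SRP9, which with SRP14 binds the Alu end of the SRP RNA, fell at 6 weeks (−0.35, edgeR adjusted p = 0.00014) and was not called at 4 weeks (0.03, adjusted p = 0.73). SRP19, needed to assemble the particle, was not called at 6 weeks (0.02, adjusted p = 0.81) and fell at 4 weeks (−0.42, adjusted p = 2.6e-07). For both genes the difference between the ages was itself called, at −0.39 ± 0.11 for SRP9 and 0.44 ± 0.10 for SRP19. With scaling by library size alone the difference for SRP19 was 0.19 and was no longer called (adjusted p = 0.094), and SRP9 was called higher at 4 weeks (0.25, adjusted p = 0.0074).

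At the channel, 3 of 4 genes fell at each age, but not the same 3. SEC61A1, the pore-forming subunit (chromosome 13, 72254462 to 72276484, Sscrofa11.1), ranged from 207 to 335 CPM (median 237) in fasted 6-week and from 319.5 to 519 CPM (median 372) in fed 6-week piglets, which overlapped narrowly. At 4 weeks it ranged from 220 to 623 CPM (median 373) in fasted and from 313 to 634 CPM (median 427) in fed piglets, which overlapped over most of their range. The fold change was −0.62 ± 0.10 at 6 weeks (edgeR adjusted p = 7.9e-07) and −0.23 ± 0.10 at 4 weeks (adjusted p = 0.038), and the 4-week call was lost without fasted piglets 1, 28 and 32, which had low sample weights (−0.22, adjusted p = 0.055). SEC62 and SEC63 serve import after translation. SEC62 averaged 124 ± 14.0 CPM in fasted and 129 ± 18.9 CPM in fed 6-week piglets, and 110.5 ± 23.3 CPM in fasted and 197 ± 29.4 CPM in fed 4-week piglets (SD, n = 16 each). It was not called at 6 weeks (−0.06, adjusted p = 0.54) and fell at 4 weeks (−0.83, adjusted p = 7.5e-14), with a difference of 0.77 ± 0.11 (adjusted p = 5.8e-08). SEC63 fell at both ages, by 0.35 at 6 weeks and 0.26 at 4 weeks.

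The TRAP complex, which sits beside the channel and helps some signal sequences to insert, was divided. SSR1 and SSR3 fell at both ages, SSR3 by 0.32 at 6 weeks and 0.55 at 4 weeks, while SSR2 was called at neither. SSR1 changed by −0.25 at 6 weeks and −0.17 at 4 weeks. Its 6-week call was lost with goblet and plasma cell covariates (−0.17, edgeR adjusted p = 0.11). Its 4-week value changed sign with scaling by library size alone (0.069, adjusted p = 0.51). With scaling by library size alone SSR2 was called higher at 4 weeks (0.20, edgeR adjusted p = 0.0046). SSR4, the fourth subunit, was at 63.4 to 140.5 CPM (median 123) in fasted 6-week and 82.7 to 134 CPM (median 104) in fed 6-week piglets. It was at 57.3 to 120.2 CPM (median 95.3) in fasted 4-week and 46.5 to 93.4 CPM (median 61.6) in fed 4-week piglets. The groups overlapped at both ages, and at 4 weeks 15 of 16 fasted piglets were above the fed median. SSR4 was not called at 6 weeks (0.07 ± 0.10, edgeR adjusted p = 0.60) and rose at 4 weeks (0.57 ± 0.10, adjusted p = 2.4e-06).

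All 5 signal peptidase genes fell at 6 weeks, and at 4 weeks SPCS1 fell, SEC11A rose and 3 were not called. SEC11C and SEC11A are alternative catalytic subunits. SEC11C was at 19.5 to 44.2 CPM (median 27.5) in fasted 6-week and 34.6 to 61.6 CPM (median 46.5) in fed 6-week piglets, and at 21.1 to 46.6 CPM (median 31.8) in fasted 4-week and 26.1 to 43.8 CPM (median 35.9) in fed 4-week piglets. The groups overlapped at both ages, and all 16 fasted 6-week piglets were under the fed median. Its fold change was −0.67 ± 0.10 at 6 weeks (edgeR adjusted p = 2.5e-07) and −0.17 ± 0.10 at 4 weeks (adjusted p = 0.14). With goblet and plasma cell covariates SEC11C was called lower at 4 weeks too (−0.36, adjusted p = 0.0056). The change of SEC11A was small and opposite at the ages, at −0.13 ± 0.04 at 6 weeks and 0.12 ± 0.04 at 4 weeks. Both of its calls were lost with goblet and plasma cell covariates (adjusted p = 0.067 at 6 weeks and 0.078 at 4 weeks), and the 6-week one also with scaling by library size alone (adjusted p = 0.06). SPCS3, a lumenal accessory subunit, was called lower at 6 weeks (−0.40, adjusted p = 0.00023) and not at 4 weeks (0.13, adjusted p = 0.20). With scaling by library size alone SPCS3 was called higher at 4 weeks (0.35, edgeR adjusted p = 0.00045).

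The oligosaccharyltransferase showed the same order of ages. All 7 of its genes fell at 6 weeks, with a median of −0.44, and 4 of 7 fell at 4 weeks, with a median of −0.17. With scaling by library size alone 3 of those 4, all but DAD1, were no longer called at 4 weeks. RPN2, a large structural subunit (chromosome 17, 40322364 to 40378866), was at 179 to 345 CPM (median 240) in fasted 6-week and 239 to 496 CPM (median 354) in fed 6-week piglets. At 4 weeks its range was 199 to 393 CPM (median 279) in fasted and 189.5 to 323 CPM (median 244) in fed piglets. All 16 fasted 6-week piglets were under the fed median, whereas at 4 weeks 14 of 16 fasted piglets were above it. RPN2 fell at 6 weeks (−0.58 ± 0.09, edgeR adjusted p = 3.1e-07) and was not called at 4 weeks (0.18 ± 0.09, adjusted p = 0.066), and the effects differed by −0.76 ± 0.12 (adjusted p = 4.7e-07). With scaling by library size alone RPN2 was called higher at 4 weeks (0.41, edgeR adjusted p = 0.00059). Of the alternative catalytic subunits, STT3A, which works beside the channel, averaged 7.73 ± 1.70 CPM in fasted and 11.15 ± 1.37 CPM in fed 6-week piglets, and 7.90 ± 2.11 CPM in fasted and 8.13 ± 1.81 CPM in fed 4-week piglets. It fell at 6 weeks (−0.53) and was not called at 4 weeks (−0.04), while STT3B, which also acts after translation, changed by −0.20 at 6 weeks and −0.17 at 4 weeks.

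**Figure D2:**
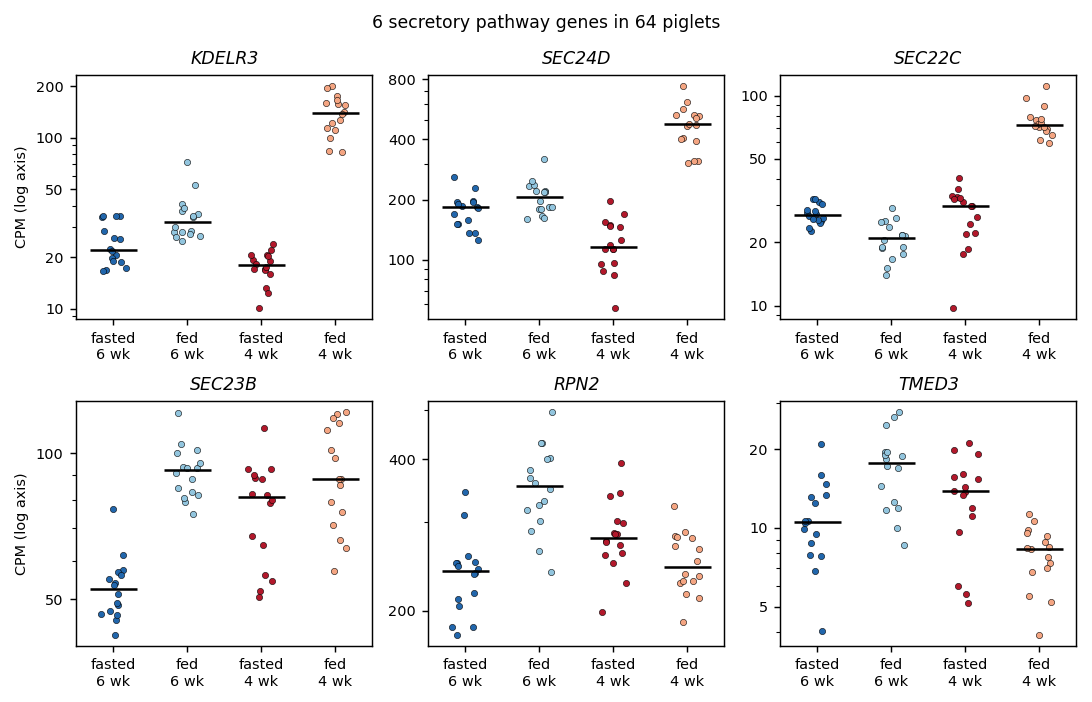
Level of 6 genes in each of 64 piglets (points, CPM on a log axis) with the median of each group as a bar, for fasted and fed piglets at 6 weeks and then at 4 weeks. KDELR3, SEC24D and SEC22C stand apart between fasted and fed piglets at 4 weeks, whereas SEC23B and RPN2 differ more at 6 weeks and TMED3 changes in opposite directions.

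COPII genes changed more at 4 weeks than at 6 weeks. Of the 14 COPII coat and ER exit genes, 6 fell and 2 rose at 6 weeks, with a median of −0.20, and 11 fell and 1 rose at 4 weeks, with a median of −0.65. Their summed level was 1490 to 2031 CPM (median 1731) in fasted 6-week and 1601 to 2360 CPM (median 1899) in fed 6-week piglets. It was 1079 to 2215 CPM (median 1696) in fasted 4-week and 2469 to 4361 CPM (median 3186) in fed 4-week piglets, so that the groups overlapped at 6 weeks and not at 4 weeks. The sum is not corrected for gene length.

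The cargo adaptors SEC24A to SEC24D responded unequally. SEC24D (chromosome 8, 104560723 to 105005400) was at 125 to 261 CPM (median 183) in fasted 6-week and 161 to 320 CPM (median 207) in fed 6-week piglets. Its level was 57.3 to 196 CPM (median 116) in fasted 4-week and 305 to 743 CPM (median 475) in fed 4-week piglets. The 6-week groups overlapped, and at 4 weeks every fasted piglet was below every fed one. The fold change was −0.23 ± 0.12 at 6 weeks (edgeR adjusted p = 0.13) and −1.94 ± 0.12 at 4 weeks (adjusted p = 6.6e-21, a 3.84-fold lower level). With scaling by library size alone the 6-week fall was called (−0.24, adjusted p = 0.035).

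SEC24A (chromosome 2, 136833399 to 136952181) followed the same order, with 112 to 194 CPM (median 156) in fasted 6-week, 143 to 247 CPM (median 191) in fed 6-week, 80.2 to 234 CPM (median 141) in fasted 4-week and 253 to 653 CPM (median 382.5) in fed 4-week piglets. It stood apart between fasted and fed piglets at 4 weeks and overlapped at 6 weeks, with changes of −0.30 ± 0.10 (edgeR adjusted p = 0.019) at 6 weeks and −1.52 ± 0.11 (adjusted p = 3.9e-19) at 4 weeks. SEC24C, which forms a subfamily with SEC24D, was not called at 6 weeks (−0.05, adjusted p = 0.51) and fell by 0.27 at 4 weeks. SEC24B, the partner of SEC24A in the other subfamily, was called at neither age (0.04 at 6 weeks and −0.06 at 4 weeks), although at 4 weeks it was called higher by 0.16 with scaling by library size alone. Each subfamily thus held 1 member with a change of 2.87-fold or more at 4 weeks and 1 with at most 1.20-fold.

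SEC23B, the inner coat protein that pairs with SEC24, went the other way round in time. It was at 42.3 to 76.8 CPM (median 52.4) in fasted 6-week and 74.9 to 121 CPM (median 92.1) in fed 6-week piglets, and at 50.6 to 112.5 CPM (median 81.0) in fasted 4-week and 57.2 to 122 CPM (median 88.6) in fed 4-week piglets. Only the highest fasted 6-week piglet reached the fed range, whereas the 4-week groups overlapped widely. The change was −0.79 ± 0.10 at 6 weeks (edgeR adjusted p = 5.4e-09), the strongest fall of any member at that age, and −0.24 ± 0.10 at 4 weeks (adjusted p = 0.027). The difference between the ages was −0.55 ± 0.14 (adjusted p = 0.00072). Its paralog SEC23A had no gene ID paired with its symbol here.

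In the outer coat, SEC13 averaged 133 ± 19.0 CPM in fasted and 150 ± 22.6 CPM in fed 6-week piglets, and 118 ± 15.2 CPM in fasted and 245.5 ± 32.5 CPM in fed 4-week piglets. It was not called at 6 weeks (−0.17 ± 0.07, edgeR adjusted p = 0.055) and separated the groups at 4 weeks (−1.06 ± 0.07, adjusted p = 1.7e-19). With scaling by library size alone SEC13 was called lower at 6 weeks (−0.20, adjusted p = 0.0073). SEC31A, its partner in the cage, changed by 0.06 at 6 weeks, which was not called, and fell by 0.52 at 4 weeks. SEC31B, a lower-count paralog, rose at both ages by about the same amount, 0.28 at 6 weeks and 0.25 at 4 weeks (adjusted p = 0.022 and 0.026). Without a filter on low counts it was called at neither age (adjusted p = 0.066 at 6 weeks and 0.078 at 4 weeks), and its 6-week call was also lost with scaling by library size alone (adjusted p = 0.11) and with goblet and plasma cell covariates (adjusted p = 0.12).

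The exit site organisers were split in a similar way. SEC16A, the main scaffold of ER exit sites, fell at both ages, by 0.41 at 6 weeks and 0.69 at 4 weeks. SEC16B (chromosome 9, 119778660 to 119842962), a shorter relative, was at 151 to 244 CPM (median 185) in fasted 6-week and 123.5 to 242 CPM (median 167) in fed 6-week piglets. At 4 weeks it was at 42.5 to 293 CPM (median 188) in fasted and 362 to 586 CPM (median 435) in fed piglets, which did not meet. The change was 0.11 ± 0.13 at 6 weeks (edgeR adjusted p = 0.54) and −1.33 ± 0.13 at 4 weeks (adjusted p = 4.0e-13).

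The SEC22 proteins, SNARE and SNARE-like proteins of ER and Golgi transport, took 3 courses. SEC22B, the SNARE itself, fell by 0.39 at 6 weeks and by 1.09 at 4 weeks, and separated the 4-week groups. SEC22A fell at 6 weeks (−0.23, edgeR adjusted p = 0.0052) and was not called at 4 weeks (−0.03, adjusted p = 0.76), with a difference of −0.21 (adjusted p = 0.068), and with scaling by library size alone it was called higher at 4 weeks, by 0.17. SEC22C (chromosome 13, 26080934 to 26125120) was at 22.6 to 32.1 CPM (median 27.0) in fasted 6-week and 13.9 to 29.3 CPM (median 21.0) in fed 6-week piglets, with all 16 fasted piglets above the fed median. At 4 weeks it was at 9.71 to 40.3 CPM (median 29.8) in fasted and 59.5 to 111.5 CPM (median 72.3) in fed piglets, which did not meet. It rose by 0.39 ± 0.11 at 6 weeks (adjusted p = 0.0034) and fell by 1.47 ± 0.11 at 4 weeks (adjusted p = 4.4e-18), a difference of 1.86 ± 0.15 (adjusted p = 2.7e-15).

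The COPI coat genes of the return route that the symbols took in moved as a block at 4 weeks, with 1 exception. ARCN1, a coat gene without a COP symbol, was listed among the retrieval partners and is not counted here. At 6 weeks 6 of these 8 genes fell and none rose, and at 4 weeks 7 fell and 1 rose. The summed level of the 8 was 763 to 1001 CPM (median 882) in fasted 6-week and 938 to 1258 CPM (median 1095) in fed 6-week piglets. It was 705 to 1015 CPM (median 883) in fasted 4-week and 1165 to 1935 CPM (median 1527) in fed 4-week piglets. The sums overlapped at 6 weeks and not at 4 weeks. COPA, COPB1, COPB2 and COPG1, which include inner and outer coat subunits, each separated the 4-week groups, with changes of −0.34, −0.32, −0.34 and −0.39 at 6 weeks and of −0.87, −0.92, −1.01 and −0.81 at 4 weeks, in that order of genes. These 7 falls were also called with scaling by library size alone.

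The paralogs of the gamma and zeta subunits parted. COPG1 averaged 218 ± 23.7 CPM in fasted and 287 ± 34.4 CPM in fed 6-week piglets, and 223.5 ± 29.4 CPM in fasted and 392 ± 45.8 CPM in fed 4-week piglets. COPG2 was at 11.3 to 18.9 CPM (median 14.9) in fasted 6-week and 9.27 to 17.3 CPM (median 13.3) in fed 6-week piglets, and at 13.4 to 23.1 CPM (median 17.6) in fasted 4-week and 6.53 to 14.1 CPM (median 10.2) in fed 4-week piglets. The ranges overlapped, and 16 of 16 fasted 4-week piglets were above the fed median. COPG2 was not called at 6 weeks (0.17 ± 0.08, edgeR adjusted p = 0.11) and rose at 4 weeks (0.79 ± 0.09, adjusted p = 3.2e-12). COPZ1 and COPZ2 both fell at both ages, COPZ1 by 0.23 at 6 weeks and 0.65 at 4 weeks, and COPZ2 by 0.66 and by 1.69. COPZ2 was sparse, at 1.10 to 2.87 CPM in fasted and 1.49 to 4.92 CPM in fed 6-week piglets and at 0.408 to 3.18 CPM in fasted and 2.44 to 7.93 CPM in fed 4-week piglets, and varied most among fasted 4-week piglets of all members (coefficient of variation 58%). With goblet and plasma cell marker levels as covariates its 6-week call was lost (−0.43, adjusted p = 0.13).

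**Figure D3:**
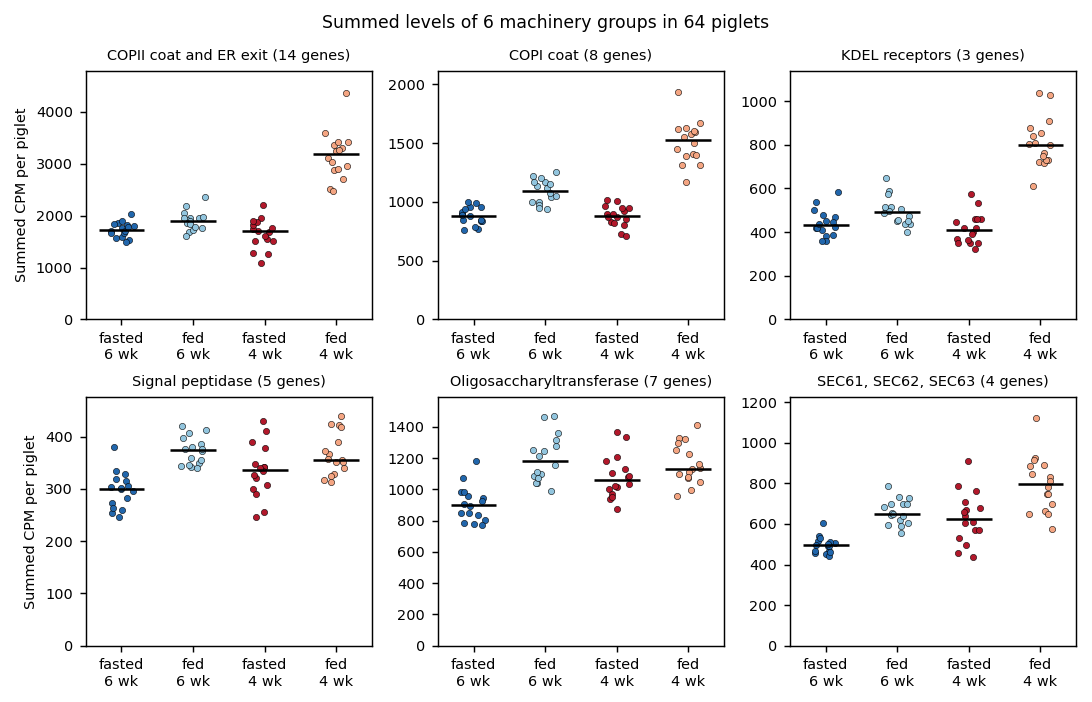
Summed CPM of the genes of 6 machinery groups in each piglet (points) with group medians (bars), for fasted and fed piglets at 6 weeks and then at 4 weeks. The COPII, COPI and KDEL receptor sums of fasted and fed piglets do not meet at 4 weeks, while the signal peptidase, oligosaccharyltransferase and SEC61 sums overlap in both ages.

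KDEL receptors bind the tail of some lumenal chaperones in the Golgi and bring them back to the ER. KDELR3 (ENSSSCG00000000105, chromosome 5, 9505205 to 9515723) had the largest fold change of all members. Its level was 16.6 to 35.0 CPM (median 22.0) in fasted 6-week and 24.9 to 71.9 CPM (median 32.1) in fed 6-week piglets, and 10.0 to 23.8 CPM (median 17.9) in fasted 4-week and 82.3 to 201.5 CPM (median 139) in fed 4-week piglets. Fed 4-week piglets stood above the piglets of the other 3 groups without overlap, and the 6-week groups overlapped. The change was −0.53 ± 0.14 at 6 weeks (edgeR adjusted p = 0.0012) and −2.98 ± 0.14 at 4 weeks (adjusted p = 2.8e-26, 7.87-fold lower). The effects differed by 2.45 ± 0.19 (adjusted p = 3.3e-16). The 4-week value was −2.97 with goblet and plasma cell covariates, under which the 6-week call was lost (−0.28, adjusted p = 0.097).

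KDELR2 was at 161 to 263 CPM (median 202) in fasted 6-week and 231 to 363 CPM (median 265) in fed 6-week piglets, and at 158 to 259 CPM (median 188) in fasted 4-week and 303 to 572 CPM (median 426) in fed 4-week piglets. It separated the groups at 4 weeks only, with changes of −0.44 ± 0.08 at 6 weeks (edgeR adjusted p = 5.4e-06) and −1.10 ± 0.08 at 4 weeks (adjusted p = 2.8e-19). KDELR1 averaged 209 ± 39.2 CPM in fasted and 180 ± 23.1 CPM in fed 6-week piglets, and 201 ± 42.3 CPM in fasted and 248 ± 29.7 CPM in fed 4-week piglets. It rose at 6 weeks (0.22 ± 0.08, adjusted p = 0.029) and fell at 4 weeks (−0.30 ± 0.08, adjusted p = 0.0013). Neither call of KDELR1 held with the marker covariates, and the 4-week one was also lost with scaling by library size alone (−0.10, adjusted p = 0.18).

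The p24 proteins cycle between ER and Golgi and help to load cargo such as lipid-anchored proteins. At 6 weeks 6 of 8 fell and none rose, and at 4 weeks 6 fell and 2 rose. TMED10, a core subunit, was at 158 to 294 CPM (median 189) in fasted 6-week and 242 to 324 CPM (median 272) in fed 6-week piglets, and at 168.5 to 306 CPM (median 233) in fasted 4-week and 253 to 497 CPM (median 327) in fed 4-week piglets. The groups overlapped at both ages, and it fell by 0.47 at 6 weeks and by 0.55 at 4 weeks (edgeR adjusted p = 2.2e-06 and 1.3e-08). The effects differed by 0.08 ± 0.11 (adjusted p = 0.57). TMED9 also fell at both ages, by 0.58 at 6 weeks and 0.44 at 4 weeks. TMED4 fell by 0.32 at 6 weeks and by 0.73 at 4 weeks, where its groups did not meet. TMED7 and TMED1 were not called at 6 weeks (−0.17 and 0.06) and fell at 4 weeks (−0.68 and −0.57). TMED7 was called lower at 6 weeks with scaling by library size alone (−0.19, edgeR adjusted p = 0.0064). The same held with goblet and plasma cell covariates (−0.24, adjusted p = 0.0052).

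TMED3 (chromosome 7, 48431629 to 48442247) and TMED8 were the p24 genes called in opposite directions at the ages. TMED3 was at 4.05 to 21.0 CPM (median 10.6) in fasted 6-week and 8.60 to 27.8 CPM (median 17.8) in fed 6-week piglets, and at 5.16 to 21.2 CPM (median 13.8) in fasted 4-week and 3.91 to 11.3 CPM (median 8.34) in fed 4-week piglets. All 4 groups overlapped, with 15 of 16 fasted piglets under the fed median at 6 weeks and 13 of 16 above it at 4 weeks. TMED3 fell at 6 weeks (−0.65 ± 0.17, edgeR adjusted p = 0.0022) and rose at 4 weeks (0.73 ± 0.18, adjusted p = 0.00029), a difference of −1.38 ± 0.25 (adjusted p = 4.1e-06). Of 7 plasma cell markers 1 fell and none rose at 6 weeks, with summed means of 278 ± 157 CPM in fasted and 339 ± 152 CPM in fed piglets, and 6 rose at 4 weeks, with 194 ± 101 CPM in fasted and 79.8 ± 20.2 CPM in fed piglets. Goblet, cycling crypt, and macrophage and dendritic cell markers also had more calls lower than higher at 6 weeks, and the reverse at 4 weeks. The other marker lists did not. With goblet and plasma cell covariates TMED3 changed by −0.56 at 6 weeks (adjusted p = 0.011) and by 0.31 at 4 weeks (adjusted p = 0.15). The source of the TMED3 changes was not tested. TMED8 also fell at 6 weeks (−0.23) and rose at 4 weeks (0.25), and neither call held with the covariates.

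The rule also took in a pair of SEC14-like lipid-binding proteins, which are no part of the coats. SEC14L1 was not called at 6 weeks (−0.07, edgeR adjusted p = 0.60) and fell at 4 weeks (−0.88, adjusted p = 6.3e-11). SEC14L2 was called at neither age and varied widely among piglets, from 21.4 to 178 CPM in fasted 4-week piglets.

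The difference between the fasting effects, taken as 6 weeks minus 4 weeks, was called for 43 members. It was positive for 29 (46%), against 27.1% of all tested genes, and negative for 14 (22.2%), against 26.6% of all. Tested against a 1.5-fold change, 7 members were called, against 19% of tested genes. Scaled by library size alone, 19 members were positive and 24 negative, so that 44.2% of called members were positive in place of 67.4%. On that scale the median of all tested genes was −0.22 in place of 0.02, and SEC24C changed sign.

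When roles were joined after their values were seen, as a description only, the import side (SRP, channel, TRAP, signal peptidase and oligosaccharyltransferase, 28 genes) had a median change of −0.35 at 6 weeks and −0.20 at 4 weeks. On that side 24 genes fell and none rose at 6 weeks, and 16 fell and 2 rose at 4 weeks. The export and retrieval side (COPII, COPI, KDEL receptors and p24 proteins, 33 genes) had medians of −0.27 at 6 weeks and −0.65 at 4 weeks, with 20 lower and 3 higher at 6 weeks and 27 lower and 4 higher at 4 weeks. Over all tested genes 18.4% fell and 22.7% rose at 6 weeks, and 29.4% fell and 33.9% rose at 4 weeks. The difference of effects was positive for 23 and negative for 4 of the export and retrieval genes, and positive for 5 and negative for 10 of the import genes. Over all tested genes it was positive for 27.1% and negative for 26.6%. Scaled by library size alone, the import genes SRP72, SEC61A1, SEC63, SSR1, OSTC, RPN1 and STT3B were no longer called lower at 4 weeks. SRP9, SSR2, SPCS3, DDOST and RPN2 were then called higher. On the other side SEC23B, SEC24C, KDELR1, TMED5 and TMED9 lost that call, and SEC22A and SEC24B were called higher.

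Between the ages, in fed piglets 36 members were lower and 12 higher at 6 weeks than at 4 weeks, against 32.3% and 31.9% of all tested genes, and their median was −0.23. With scaling by library size alone 27 were lower and 22 higher, the median of all tested genes was 0.20 in place of −0.01, and SRP54, SSR2, SEC24C and SEC61A1 changed sign. The levels of 6 members in fed 6-week piglets lay below those of all fed 4-week piglets (SEC16B, SEC22C, SEC24A, COPE, KDELR3 and SEC14L1), a pattern seen in 5.1% of tested genes. In fasted piglets 19 members were lower and 7 higher at 6 weeks, against 23.2% and 19.7% of all, with a median of −0.04, and no member separated the ages, where 0.341% of tested genes did. Tested against a 1.5-fold change, 8 members were called in fed piglets, against 19.9% of tested genes, and 6 of them were lower, against 9.09%, while 0 were called in fasted piglets, against 6.41%. The age comparisons use the same piglets as the fasting comparisons, so the values below are not further support for them.

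KDELR3 averaged 35.4 ± 12.1 CPM in fed 6-week and 139 ± 36.4 CPM in fed 4-week piglets (−1.98 ± 0.14, edgeR adjusted p = 1.6e-19), and 24.5 ± 7.00 CPM in fasted 6-week and 17.7 ± 3.59 CPM in fasted 4-week piglets (0.47 ± 0.14, adjusted p = 0.0038). With goblet and plasma cell covariates the change in fasted piglets was −0.13 (adjusted p = 0.63). SEC22C averaged 20.9 ± 4.20 CPM in fed 6-week and 76.0 ± 13.4 CPM in fed 4-week piglets (−1.86 ± 0.11), and 27.4 ± 2.92 CPM in fasted 6-week and 27.5 ± 7.91 CPM in fasted 4-week piglets. SEC16B showed the same picture, with −1.34 ± 0.13 in fed piglets and 0.09 ± 0.13 in fasted ones (adjusted p = 0.61). Members that were higher at 6 weeks in fed piglets were led by TMED3 (1.12 ± 0.18), SSR4 (0.79 ± 0.10), RPN2 (0.50 ± 0.09), SEC14L2 (0.47 ± 0.17) and STT3A (0.46 ± 0.11). In fasted piglets SEC61A1 (−0.62 ± 0.10) and SEC23B (−0.54 ± 0.10) were lower and SEC14L2 (0.96 ± 0.17) and SEC24D (0.53 ± 0.12) higher at 6 weeks. Cell type markers differed between the ages as well. In fed piglets all 6 goblet and all 7 plasma cell markers, 6 of 7 cycling crypt cell and 6 of 7 T cell markers were higher at 6 weeks, while 7 of 8 enteroendocrine, 7 of 10 smooth muscle and 4 of 7 blood endothelium markers were lower. The goblet markers had summed medians of 2917 CPM in fed 6-week and 1422 CPM in fed 4-week piglets, and the plasma cell markers 281.5 CPM in fed 6-week and 70.6 CPM in fed 4-week piglets. Cycling crypt cell markers had summed medians of 2059 CPM in fed 6-week and 187 CPM in fed 4-week piglets. The absorptive enterocyte markers summed to medians of 48820 CPM in fed 6-week and 81540 CPM in fed 4-week piglets, with 5 of 10 higher and 4 lower. In fasted piglets all 6 goblet markers were higher and 6 of 8 enteroendocrine markers lower at 6 weeks. Of all tested genes 31.9% were higher and 32.3% lower at 6 weeks in fed piglets, and 19.7% and 23.2% in fasted ones. The part of cell types in the age differences was not tested. With goblet and plasma cell covariates 24 members were lower and 2 higher in fed piglets, against 1869 and 1483 of all tested genes. Without covariates 4548 of all were lower and 4480 higher. The calls of TMED3, SSR4, RPN2 and STT3A were among the 23 lost. Plasma cell markers summed to 160 to 696.5 CPM in fed 6-week and 54.3 to 111.5 CPM in fed 4-week piglets. Those ranges do not meet, and the goblet ones barely do, so this fit cannot tell these markers from age in fed piglets.

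Partners of the members were taken from lists of pathway genes, whose counts stand beside the 18.4% of all tested genes that fell at 6 weeks and the 29.4% that fell at 4 weeks. Of 24 tested ER export partners 11 fell and none rose at 6 weeks, and 19 fell and 1 rose at 4 weeks. LMAN1, a lectin that carries glycoproteins out of the ER, averaged 141 ± 18.8 CPM in fasted and 135 ± 17.6 CPM in fed 6-week piglets, and 109.9 ± 24.8 CPM in fasted and 285 ± 72.2 CPM in fed 4-week piglets (0.07 and −1.37). SURF4, a cargo receptor, and USO1, a tether at the Golgi, fell at both ages, SURF4 by 0.58 at 6 weeks and 0.93 at 4 weeks and USO1 by 0.56 and 1.09. BET1, a SNARE that acts with SEC22B, and YIF1A, a membrane protein of ER to Golgi vesicles, fell by 1.36 and 1.51 at 4 weeks.

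Of 18 retrieval partners 7 fell and 6 rose at 6 weeks, and 14 fell and 2 rose at 4 weeks. ARF4, a GTPase that helps to recruit COPI, averaged 241 ± 36.4 CPM in fasted and 364 ± 61.2 CPM in fed 6-week piglets, and 285 ± 57.1 CPM in fasted and 901 ± 249.5 CPM in fed 4-week piglets (−0.59 ± 0.10 and −1.66 ± 0.11). ARFGAP3, which promotes the uncoating of COPI vesicles, was not called at 6 weeks (0.05, edgeR adjusted p = 0.73) and fell at 4 weeks (−1.69, adjusted p = 1.4e-19). Of 19 ER import and glycosylation partners 7 fell and 1 rose at 6 weeks, and 12 fell and 1 rose at 4 weeks. Among them EMC1, a subunit of the ER membrane insertase, fell by 0.67 at 6 weeks and by 1.80 at 4 weeks.

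**Figure D4:**
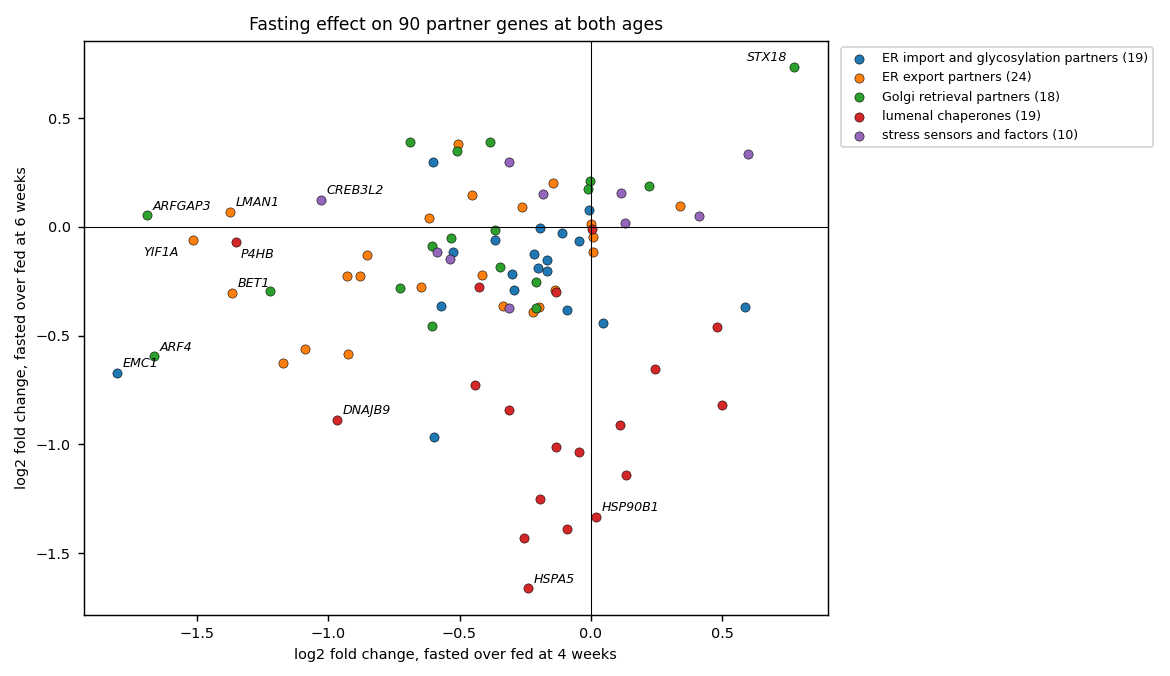
Log2 fold change of fasted over fed piglets at 4 weeks (horizontal axis) and at 6 weeks (vertical axis) for 90 tested partner genes, coloured by list. Most lumenal chaperones lie low at 6 weeks with small changes at 4 weeks, as for HSPA5 (−1.66 and −0.24), while export and retrieval partners spread to the left.

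KDEL receptors return those lumenal chaperones that carry the tail they bind. The list of chaperones and folding enzymes used here was not limited to such proteins, and tails were not examined. Of 19 tested, 17 fell and none rose at 6 weeks, with a median of −0.89, and 5 fell (26.3%, against 29.4% of all tested genes) and 3 rose at 4 weeks, with a median of −0.13. HSPA5, the main chaperone of the ER lumen, was lower at 6 weeks (−1.66) and was not called at 4 weeks (−0.24, edgeR adjusted p = 0.17). P4HB, a disulphide isomerase that is also a subunit of the microsomal triglyceride transfer protein, behaved in the opposite order, with 2333 ± 269 CPM in fasted and 2445 ± 398 CPM in fed 6-week piglets and 2652 ± 670.5 CPM in fasted and 6769 ± 1496 CPM in fed 4-week piglets (−0.07 and −1.35). DNAJB9, a cochaperone of HSPA5, fell at both ages, by 0.89 at 6 weeks and 0.97 at 4 weeks.

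Of 10 tested stress sensors and transcription factors known to act on secretory genes, 1 fell and 2 rose at 6 weeks, and 5 fell and 3 rose at 4 weeks. XBP1, whose spliced form drives ER capacity, fell by 0.37 at 6 weeks and 0.31 at 4 weeks. CREB3L2, a membrane-bound factor that in mouse is known to drive COPII genes such as Sec23a, averaged 236 ± 58.5 CPM in fasted and 216 ± 52.2 CPM in fed 6-week piglets and 169 ± 55.6 CPM in fasted and 345 ± 49.5 CPM in fed 4-week piglets. It was not called at 6 weeks (0.13, edgeR adjusted p = 0.44) and fell at 4 weeks (−1.03 ± 0.13, adjusted p = 2.7e-10). Its relative CREB3L1 rose at 4 weeks (0.60, adjusted p = 0.0029), and CREB3L3, of liver and gut, was called at neither age (0.15 at 6 weeks and −0.18 at 4 weeks). ATF6 fell at 4 weeks (−0.58), and ERN1 was called higher at both ages, by 0.15 at 6 weeks and 0.11 at 4 weeks, although its 4-week call was lost with DESeq2 (adjusted p = 0.054). Activity of these factors was not measured.

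Within groups, 9 members, 1 for each role, were set against HSPA5 across the 16 piglets on log2(CPM + 0.5), which makes 36 relations adjusted together by Benjamini-Hochberg. In fed 4-week piglets 8 of 9 followed HSPA5 by Pearson's r and 7 of 9 by Spearman's rho. The median r of the 9 was 0.83, which 0.725% of the 14061 tested genes other than HSPA5 reached, and the median over those genes was −0.04. TMED10 was the closest (r = 0.93, rho = 0.91, permutation p = 1e-05 and 2e-05, adjusted p = 0.00036 and 0.00072, with 1e-05 the smallest p the permutations can give), and r was 0.92 without the 2 piglets farthest from the median of HSPA5. SEC24D (r = 0.88, rho = 0.79) and KDELR2 (r = 0.88, rho = 0.80) followed it too, with r of 0.80 and 0.79 without those piglets. In fasted 4-week piglets SPCS2 (r = 0.78, rho = 0.80), TMED10 (0.73 and 0.80), SRPRB (0.69 and 0.68) and SSR3 (0.58 and 0.60) passed by both measures, and 9.36% of tested genes reached the median r of the 9, 0.55. In fasted 6-week piglets 4 of 9 passed by r and 2 by rho, with TMED10 at an r of 0.65 that dropped to 0.30 without 2 piglets, and 8.51% of tested genes reached the median r of the 9, 0.50. In fed 6-week piglets none passed by either measure, with r from −0.04 to 0.49 and a median of 0.19 that 26.2% of tested genes reached. All these genes share the scaling of their library, and differences between the groups were not tested.

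Some values could hold or lack reads because of neighbouring genes, since the strand setting of the counting was not given. Reads classed as ambiguous between genes were not counted, so a member can also lose reads to an overlap. Spans here are whole genes with introns, so an overlap does not show how many reads are at stake. Of the 62 members with an entry in the RefSeq gene table of the same build, the span of 23 overlaps another gene and that of 16 a protein-coding one. Both counts include SEC16A, which has no placed chromosome, so its overlaps may join positions on different unplaced sequences. SEC24D overlaps SYNPO2, a smooth muscle marker, by 166590 bases and MYOZ2 by 30426 bases. SYNPO2 had means of 5.91 CPM in fasted and 8.87 CPM in fed 4-week piglets, and MYOZ2 was not among the tested genes. The part of their reads in the SEC24D values was not tested. SEC22C overlaps SS18L2 by 4339 bases. SEC24A overlaps SAR1B, the GTPase that starts COPII coats and in humans is needed for chylomicron export, by 25406 bases. SAR1B fell at 4 weeks as well, by 0.88, with means of 226 CPM in fasted and 415 CPM in fed piglets. COPG2 overlaps the imprinted gene MEST by 12411 bases, and MEST, at means of 1.248 CPM in fasted and 0.506 CPM in fed 4-week piglets, rose by 1.29 (edgeR adjusted p = 3.7e-07). Paralog pairs such as SEC24C and SEC24D may also share a few reads, which the deposited counts do not show.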

How the data were processed

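RNA from scraped mid-jejunal mucosa was sequenced on a BGISEQ-500, per the labels' protocols, whose extraction text speaks of muscle tissue. The values the authors deposited are raw counts per gene, for which the submitters' processing notes name STAR, HTSeq and the Sscrofa11.1 build. Tool versions, annotation release and strand setting are not given in the sources used here. The 5 HTSeq summary classes entered neither library sizes nor tests (reads outside genes 4.84 to 8.89%, ambiguous 5.5 to 7.64%, not unique 2.73 to 4.07%). Of 31908 gene IDs, 15029 were paired with a symbol, and these held 86% of the counts. The symbols SEC23A, SEC61G and TMED2 were in the RefSeq table but paired with no counted ID.

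All 64 libraries entered 1 edgeR 4.0.16 model (R 4.3.3) with a mean per group, TMM scaling (factors 0.758 to 1.38), filterByExpr and robust quasi-likelihood F tests, with Benjamini-Hochberg adjustment over 14062 genes and calls at 0.05. The SE of a log2 fold change was its size divided by the square root of F. Levels are CPM, and ± is the SD over 16 piglets unless marked SE. The sparsest members, COPZ2 and TMED1, rest on the fewest reads. Scripts were tested on simulated data.

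Members, lists, roles and settings were chosen with earlier results of these data known. Named genes were the member with the smallest p in each role, direction and comparison, all members changed by 2-fold in a fasting comparison, paralog sets, the 2 genes with the smallest p in each partner list, and fixed stress genes. Genes outside that rule, such as SEC63, SSR1, SSR2, SRP54, SAR1B, SYNPO2 and MEST, were chosen after their values were seen. Of the fixed stress genes, ATF4 had no paired ID and DDIT3 did not pass the filter. Alternatives were DESeq2 1.42.0 and its size factors, limma-voom (limma 3.58.1), scaling by library size, no filter, only the compared groups, fewer libraries, marker covariates, and a fold threshold of 1.5.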

Additional observations from a re-analysis of the deposited data

Results flagged for a closer look

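The response to fasting differed between the ages, by the test of the difference itself (6 weeks minus 4 weeks, log2 scale, edgeR adjusted p under 0.05), for 29 members with a positive (46%, against 27.1% of all tested genes) and 14 with a negative difference (22.2%, against 26.6% of all). A positive difference, meaning a less negative or more positive change at 6 weeks, was found in the COPII and ER exit genes SEC22C (1.86), SEC24D (1.72), SEC16B (1.43), SEC24A (1.22), SEC13 (0.89), SEC22B (0.70), SEC31A (0.58), SEC23IP (0.34), SEC16A (0.28) and SEC24C (0.22). It was also positive for KDELR3 (2.45), KDELR2 (0.66) and KDELR1 (0.52), and in the COPI coat for COPZ2 (1.03), COPB2 (0.67), COPB1 (0.60), COPA (0.53), COPG1 (0.42), COPZ1 (0.41) and COPE (0.39). Of the p24 genes TMED1 (0.63), TMED7 (0.51) and TMED4 (0.42) had it, and of the others SEC14L1 (0.81), SEC62 (0.77), SRP19 (0.44), SRPRA (0.34), SRPRB (0.32) and SPCS1 (0.29).

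A negative difference was found for TMED3 (−1.38), RPN2 (−0.76), COPG2 (−0.62), SEC23B (−0.55), SPCS3 (−0.52), SEC11C (−0.51), SSR4 (−0.50), STT3A (−0.49), TMED8 (−0.49), DDOST (−0.47), SEC61A1 (−0.40), SRP9 (−0.39), SEC11A (−0.26) and SRP68 (−0.24). SSR4, COPG2, TMED3, TMED8 and SEC11A were higher in fasted than in fed piglets at 4 weeks, and the rest of these were lower or not called there.

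Of these 43 differences, 10 were no longer called with scaling by library size alone (SRPRA, SRPRB, SRP19, SPCS1, SEC16A, SEC23IP, SEC24C, COPE, COPZ1 and TMED4). With goblet and plasma cell marker levels as covariates 11 were no longer called (SEC61A1, SSR4, SEC11C, STT3A, SRP68, SEC16A, SEC23IP, SEC24C, KDELR1, TMED1 and TMED7). Over all tested genes that fit called 2942 positive and 2792 negative differences, against 3817 and 3739 without covariates.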

How the results depend on the processing

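No paired analysis was possible because each piglet has its own number and the groups share none. The count of members lower at 6 weeks (44) and at 4 weeks (44) stayed within 1.5 times under every alternative run but the test against a 1.5-fold change, under which 0 members were lower and 0 higher at 6 weeks, and 17 lower and 1 higher at 4 weeks. Under that test 6 were lower and 2 higher between the ages in fed piglets, 0 and 0 in fasted ones, and the difference of effects was positive for 6 and negative for 1. Scaled by library size alone, 13 members were higher at 4 weeks, 22 were higher at 6 weeks in fed piglets, and the difference of effects was positive for 19 and negative for 24. With goblet and plasma cell marker levels as covariates, 1 was higher at 6 weeks, 3 at 4 weeks, 2 between the ages in fed and 3 in fasted piglets. In the same order, 2307, 4226, 1483 and 1899 of all tested genes were higher in that fit. Without covariates 3197, 4768, 4480 and 2770 were. With no filter on low counts, 1 was higher at 6 weeks and 10 were lower between the ages in fasted piglets. The causes were not tested.

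Scaled by library size alone, the 4-week values of SEC24B (0.16, adjusted p = 0.012), SEC22A (0.17, adjusted p = 0.011) and STT3B (0.042, adjusted p = 0.57) and the difference of effects of SEC24C (−0.012, adjusted p = 0.88) changed sign. The change of KDELR3 between the ages in fasted piglets did so with the covariates (−0.13). Of the values of single named genes under alternatives, 1451 were counted as unchanged, 188 lost and 16 gained a call, and 5 were counted as reversed. The 5 are those just listed. Some values called on neither scale also changed sign and are not among them. At 4 weeks, scaling by library size alone moved STT3A from −0.042 to 0.20 and SEC11C from −0.17 to 0.069. Without fasted 4-week piglets 1, 28 and 32, which had the lowest limma-voom weights, 43 members were lower and 5 higher at 4 weeks. With a level of 5 CPM 61 genes were members. Promoter motifs and protein tails were not examined, as no sequences were used here. Litter, pen and sequencing batch, which the labels do not give, could not be modelled. COPZ2, a sparse gene, had the largest SE of the 63 members in both fasting comparisons (0.208 at 6 weeks and 0.21 at 4 weeks), so changes of it that are small beside that SE were not detectable.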
